A study of Rattus norvegicus with 9 samples.

Results

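Messenger RNA in the patellar enthesis of the rat, the zone where the tendon inserts into bone, was compared 4 weeks after surgery between repairs that held a silk fibroin scaffold and repairs that held none. All 84 target genes of a quantitative PCR array were taken as members, whatever their values, and 4 of the 9 samples of the series were used. The scaffold side consisted of S-MT, a biphasic scaffold whose bony and tendon ends blend in a mixed transition, and S-AT, the same kind of scaffold with an abrupt transition. The unscaffolded side consisted of ED, an empty defect with the tendon sutured back to bone, and TC, a transversal cut of the tendon close to its insertion with the bone left intact. The label of TC names a tendon-to-tendon suture, whereas the methods describe the cut as untreated, and which of these holds is not settled here. All 4 groups were male Sprague Dawley rats operated on 1 leg, and tissue was collected after mechanical testing. The design text counts 8 rats in each group at each time, whereas the files carry a single Ct per gene for a group, and whether that stands for 1 rat, a mean or a pool is not given in the sources used here. S-MT and S-AT therefore served as the 2 samples of one side, and ED and TC as those of the other. TC differs from the scaffold groups in its wound, with no bone defect, as well as in the lack of a scaffold, and these cannot be told apart. ED differs in its fixation as well. By the paper's account its sutures ran through tendon and bone, whereas those of the scaffold groups passed through neither tendon nor scaffold. Fixation and the lack of a scaffold cannot be told apart in ED.

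The enthesis passes from tendon through fibrocartilage to bone. Tendon matrix is mainly type I collagen, fibrocartilage adds type II collagen and proteoglycans, and bone adds mineral laid down by osteoblasts. After injury the wound is filled by a provisional matrix with fibronectin, which cells grip through integrins, and is then remodelled by matrix metalloproteinases and cathepsins under the influence of transforming growth factor beta (TGF-beta). Of these tissues the array recorded fibrous matrix and cartilage matrix in all 4 groups, with *Col1a1*, *Col3a1*, *Col2a1* and *Comp* all measured. *Sox9*, the cartilage transcription factor, was over the detection limit in all 4. The osteoblast genes *Alpl*, *Bglap*, *Phex*, *Sost* and *Sp7* were over it as well. *Runx2*, also an osteoblast gene, was measured in both scaffold groups and in neither unscaffolded group. No gene that defines tendon, such as *Scx* or *Tnmd*, is on the array.

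Each well gave a threshold cycle (Ct), when the PCR signal passed a fixed limit, so a later Ct means less template and 1 cycle corresponds to 2-fold. Wells past cycle 35, or undetermined, were put at 35 and are called over the cut-off. A log2 level is the mean Ct of the reference genes *Ldha* and *Rplp1* minus the Ct of the gene, and differences are between log2 levels. Because assays amplify unequally, levels were compared between samples and not between genes. The tissue is bulk, so that fewer cells of a type and less RNA per cell cannot be told apart.

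The mean Ct of all 5 housekeeping genes was later in the unscaffolded groups, by unequal amounts, and *Rplp1* was later than in both scaffold groups in TC only. *Rplp1*, a ribosomal protein gene, had Ct 25.2 in S-MT, 25.3 in both S-AT and ED, and 27.1 in TC. *Ldha*, which encodes lactate dehydrogenase A of glycolysis, had Ct 28.4, 28.4, 31.0 and 32.5 in the same order. On average the unscaffolded side was later by 0.92 cycles in *Rplp1* and by 3.33 cycles in *Ldha*, with *Actb*, *B2m* and *Hprt1* in between. The 2 reference genes thus moved apart by 2.41 cycles between the sides. Against the mean of both, *Actb* differed by 0.35, *B2m* by -0.02 and *Hprt1* by -0.06 on the log2 scale, whereas against *Rplp1* alone all 3 were higher in the scaffold groups, by 1.56, 1.18 and 1.14. The choice of *Rplp1* alone adds 1.21 to every log2 difference given below (2.31-fold), and *Ldha* alone takes the same amount away. It leaves the order of the genes unchanged.

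**Figure D1:**
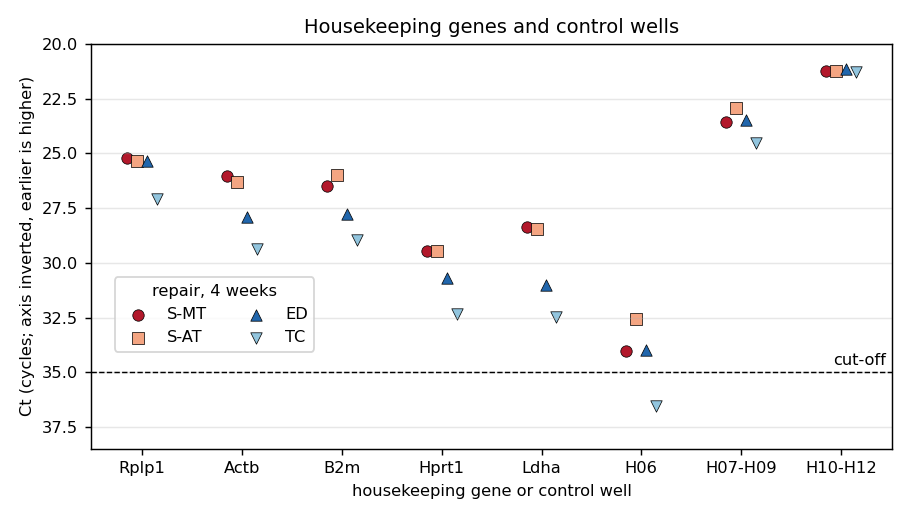
Ct in cycles (vertical axis, inverted) of the 5 housekeeping genes and of the control wells H06, H07 to H09 and H10 to H12 (means of 3) in each 4-week repair, 1 point per group. S-MT and S-AT lie close together, ED and TC are later in all housekeeping genes except that ED matches the scaffold groups in *Rplp1* at 25.3, and *Ldha* shows the widest gap.

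Control wells carried no gene name in the files. The wells H10 to H12 were at 21.1 to 21.3 in all 4 groups, and H07 to H09 were at 22.9 to 24.5, latest in TC. Well H06, which holds the genomic DNA control in the usual layout of such plates, gave Ct 34.0 in both S-MT and ED, 32.5 in S-AT and 36.5 in TC. Genes at least 1 cycle ahead of H06 numbered 38, 25, 23 and 24, and the part of genomic DNA in later wells was not tested.

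The 2 reference genes moved apart, and the choice between them changes how many genes pass a limit. Which of them moved was not tested. *Ldha* had the widest Ct difference of the housekeeping genes, and the stretch before its start site is shown. It comes from the RefSeq promoter table and holds the 250 bases before the annotated start, on the plus strand of build GRCr8 at chr1:106507842-106508091, with matches to ACGTG on either strand in capitals. ACGTG is the core of the element bound by hypoxia-inducible factors, and it was chosen after the values had been seen.
Ldha: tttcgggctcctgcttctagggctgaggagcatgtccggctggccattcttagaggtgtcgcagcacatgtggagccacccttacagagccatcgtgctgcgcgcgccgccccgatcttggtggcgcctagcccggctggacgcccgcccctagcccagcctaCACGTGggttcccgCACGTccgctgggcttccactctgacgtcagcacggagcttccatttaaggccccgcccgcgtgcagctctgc
The window held 3 matches, beginning 87, 86 and 73 bases before the start, of which the first pair overlap on opposite strands. The windows of *B2m*, *Hprt1* and *Rplp1* held 0, *Actb* was not matched, and of the 10 genes called below 8 were matched and 2, *Cd36* and *Tgfbr2*, held the motif. Of all windows, 16.6% of the 33365 in the table held at least 1. A match describes these letters only.

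Cathepsin K, osteopontin, gelatinase A and integrin subunits were higher in both scaffold groups, and type II collagen and TGF-beta 3 were lower. A gene was called higher when both scaffold groups were measured and the lower of their levels lay at least 2-fold above the higher of ED and TC, and lower by the mirror of that rule. By this rule 8 of the 50 genes measured in both scaffold groups were higher (16.0%), namely *Ctsk*, *Tgfbr1*, *Spp1*, *Cd36*, *Mmp2*, *Itgav*, *Tgfbr2* and *Itgb1*. Of the 24 genes measured in both unscaffolded groups, 2 were lower in the scaffold groups (8.33%), *Col2a1* and *Tgfb3*. With *Rplp1* alone 15 were higher (30.0%) and 1 was lower (4.17%), and with *Ldha* alone 2 were higher (4.00%) and 8 were lower (33.3%). With each of the 3 references *Ctsk* and *Tgfbr1* were higher and *Col2a1* was lower.

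Over the 24 genes measured in all 4 groups, 9 were higher in both scaffold groups than in either unscaffolded group by any margin (37.5%), 7 were lower (29.2%), and in 8 the sides overlapped. The median log2 difference was 0.39, and it was 1.59 with *Rplp1* alone and -0.82 with *Ldha* alone. In a limma fit of the 24 genes, with Benjamini-Hochberg adjustment over them, 4 were higher (16.7%) and 2 were lower (8.33%) at an adjusted p under 0.05. These 6 were *Ctsk*, *Spp1*, *Mmp2*, *Itgb1*, *Col2a1* and *Tgfb3*, all of which also passed the 2-fold rule. The p-values measure only the spread between the 2 repairs of each side, which are different treatments, and not that between rats. Leaving out S-MT or S-AT left 0 genes called by limma, with 4 and 3 at an unadjusted p under 0.05. The differences themselves were of like size, at 3.65 and 4.03 for *Ctsk*, 2.86 and 2.86 for *Spp1* and -2.97 and -2.71 for *Col2a1*, and the 2-fold rule kept all 8 higher and both lower genes. By limma, leaving out ED gave 12 higher and 4 lower, and leaving out TC gave 12 higher and 9 lower of 40 tested. The 2-fold rule called 15 higher without ED and 11 without TC. For a single gene, 2 samples against 2 cannot give a two-sided exact permutation p below 0.333.

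**Figure D2:**
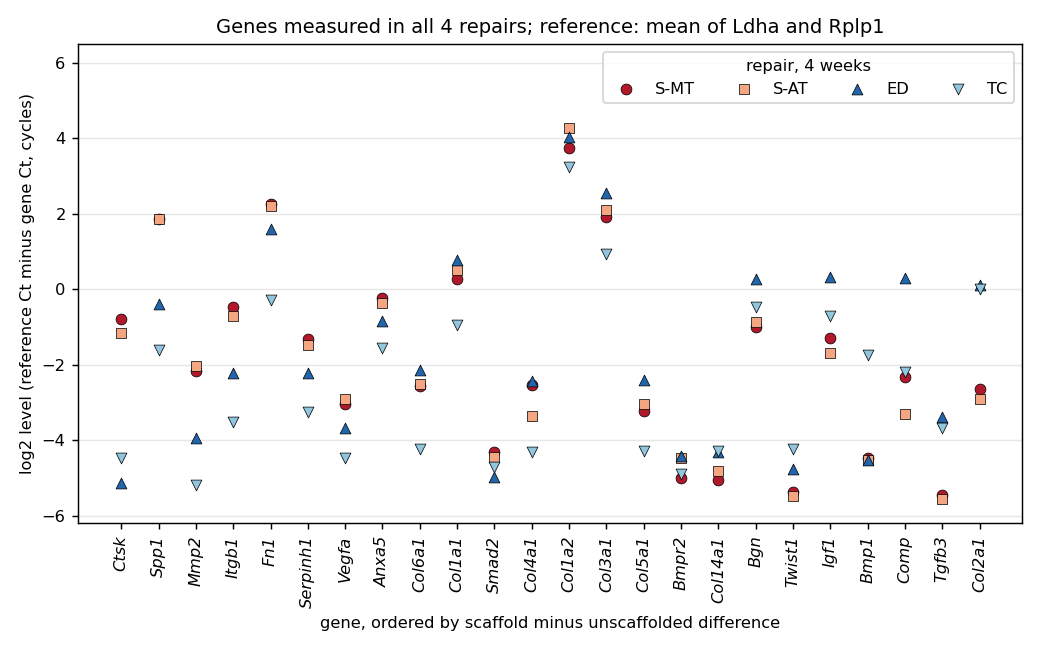
Log2 level (reference Ct minus gene Ct, in cycles) of the 24 genes measured in all 4 repairs, 1 point per gene and group, ordered from the most positive to the most negative scaffold minus unscaffolded difference. *Ctsk*, at -0.78 and -1.16 against -5.13 and -4.48, stands at the left end and *Col2a1*, at -2.65 and -2.91 against 0.12 and -0.00, at the right end.

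Spread within a side was far from equal. S-MT and S-AT lay within 2-fold of each other in all 24 genes, with a median absolute log2 difference of 0.17 and a maximum of 0.97. ED and TC differed by a median of 1.04 and a maximum of 2.78. ED was at least 2-fold above TC in 12 of the 24 and below it in 1, *Bmp1*.

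Among the matrix proteases, *Ctsk* showed the widest separation on the array. It encodes cathepsin K, the collagen-degrading cysteine protease known best from osteoclasts. Its log2 level was -0.78 in S-MT, -1.16 in S-AT, -5.13 in ED and -4.48 in TC. Both scaffold groups were high and both unscaffolded groups low, with 10.02-fold between the nearest pair. The mean difference was 14.3-fold (log2 3.84, SE 0.54, adjusted p = 0.00375 by limma, n = 2 per side). It was 33.003-fold with *Rplp1* alone and 6.20-fold with *Ldha* alone.

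*Mmp2*, the gelatinase made by fibroblasts and other stromal cells, was at -2.16 in S-MT, -2.04 in S-AT, -3.94 in ED and -5.18 in TC. The sides did not overlap, and TC was the lowest, at Ct 34.95, just inside the cut-off. The mean difference was 5.48-fold (log2 2.45, SE 0.60, limma adjusted p = 0.0252). *Mmp9*, the gelatinase of osteoclasts and neutrophils, had Ct 32.0 and 32.6 in S-MT and S-AT and 36.6 in both ED and TC. Its level in S-MT and S-AT was at least 3.17-fold and 2.18-fold above ED, but no gap to TC could be shown, since the TC limit of detection lay close to or above the scaffold levels. *Mmp8* and *Mmp10*, a neutrophil collagenase and a stromelysin, were measured in S-AT only, at Ct 34.3 and 34.7. Of the 5 proteases, 3 were measured in S-MT, 5 in S-AT, 2 in ED and 2 in TC, with 2 higher and 0 lower. Over all lists, 16.0% of the 50 genes measured in both scaffold groups were higher. Only 22 of those 50 lay far enough above the TC limit to be called. Of the 24 genes measured in both unscaffolded groups, 8.33% were lower.

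Among matrix proteins, *Spp1* encodes osteopontin, a secreted phosphoprotein of bone and of activated macrophages that binds integrins. Its log2 level was 1.85 in S-MT, 1.85 in S-AT, -0.39 in ED and -1.62 in TC. Both scaffold groups were high and equal to 2 decimals, and ED and TC were both below them. The mean difference was 7.25-fold (log2 2.86, SE 0.60, limma adjusted p = 0.0141), and the nearest pair, S-MT or S-AT over ED, differed by 4.74-fold.

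*Fn1*, fibronectin, was at 2.25 in S-MT, 2.22 in S-AT, 1.60 in ED and -0.29 in TC. The sides did not overlap, but ED lay within 2-fold of the scaffold groups and the difference of 1.58 (SE 0.70) did not pass (limma adjusted p = 0.154). *Anxa5*, annexin A5, a phosphatidylserine-binding protein of matrix vesicles, was at -0.22, -0.36, -0.83 and -1.56, a difference of 0.91 (adjusted p = 0.248). Both passed with *Rplp1* alone, at an adjusted p of 0.0133 and 0.0119 by limma, where the 2-fold rule also called them, as it did without ED. Of the 5 matrix proteins all were measured in all 4 groups, with 1 higher and 0 lower and a median difference of 0.91, against 0.39 over the 24 genes. The shares over all lists were 16.0% of 50 genes higher and 8.33% of 24 lower, so 1 higher gene in so short a list is not set apart.

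Integrins, the receptors through which cells hold fibronectin, osteopontin and collagen, were separated in the same direction in both subunits that ED still measured. *Itgb1*, the beta 1 subunit shared by most matrix receptors, was at -0.47 in S-MT, -0.71 in S-AT, -2.22 in ED and -3.52 in TC. No overlap was seen, and the mean difference was 4.86-fold (log2 2.28, SE 0.61, limma adjusted p = 0.0267). *Itgav*, the alpha V subunit that pairs with beta subunits to bind vitronectin and osteopontin, was at -3.60, -3.44 and -6.10 in S-MT, S-AT and ED and over the cut-off in TC, where its level was at most -5.23. S-MT and S-AT were 5.67-fold and 6.32-fold above ED and at least 3.09-fold and 3.44-fold above TC. In ED the Ct of *Itgav* was later than that of well H06, and the part of genomic DNA in it was not tested. The limma fit above leaves out genes over the cut-off in a group. With no cut-off, over 60 genes, the difference of *Itgav* was 2.37 (limma adjusted p = 0.0473). In that fit *Itgb1*, *Mmp2* and *Tgfb3* did not pass (limma adjusted p = 0.0667, 0.0548 and 0.0680).

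The other adhesion genes were late or over the cut-off. *Cdh11*, cadherin 11 of mesenchymal cells, was at -5.07 with S-MT, -4.99 with S-AT and -6.50 in ED and over the cut-off in TC, whose limit of -5.23 lies close to the scaffold levels. *Icam1*, an adhesion molecule of activated endothelium that leukocytes bind, had Ct 32.0 and 31.7 in S-MT and S-AT and 35.8 and 37.1 in ED and TC. At the cut-off of 35 both were called higher with *Rplp1* alone and not with the mean of the reference genes. With no cut-off, from Ct past 35 in ED and TC, the difference of *Icam1* was 2.51 (limma adjusted p = 0.0414). *Vcam1*, another such molecule, was at Ct 34.8 and 34.2 in the scaffold groups and undetermined in ED and TC. *Itgam*, the myeloid integrin, was at Ct 34.7 in S-MT, just over the cut-off in S-AT, and undetermined in both others. Of the 8 adhesion genes, 6 were measured in S-MT, 6 in S-AT, 3 in ED and 1 in TC, with 2 higher and 0 lower. The shares over all lists were 16.0% of the 50 genes measured in both scaffold groups and 8.33% of the 24 measured in both unscaffolded groups.

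In the TGF-beta family *Tgfbr1* and *Tgfbr2* were higher in the scaffold groups and the ligand *Tgfb3* was lower. *Tgfbr1*, the type I receptor kinase, was at -2.46 with S-MT, -2.89 with S-AT and -5.99 in ED and over the cut-off in TC, at most -5.23. S-MT and S-AT were 11.6-fold and 8.60-fold above ED and at least 6.80-fold and 5.06-fold above TC. In ED the Ct of *Tgfbr1* was later than that of well H06, and the part of genomic DNA in it was not tested. *Tgfbr2*, the type II receptor that binds the ligand first, was at -2.95, -3.06 and -4.58 in S-MT, S-AT and ED and over the cut-off in TC. It was 3.11-fold and 2.88-fold above ED and at least 4.85-fold and 4.49-fold above TC. With no cut-off the difference was 2.98 for *Tgfbr1* (limma adjusted p = 0.0303) and 2.20 for *Tgfbr2* (0.0680). In both receptors the scaffold groups were high and did not overlap with ED or with the limit in TC.

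*Tgfb3*, the TGF-beta isoform linked in tendon to development and to healing with less scar, was at -5.44 in S-MT, -5.56 in S-AT, -3.40 in ED and -3.67 in TC. Here both unscaffolded groups were high, and the mean was 3.91-fold lower in the scaffold groups (log2 -1.97, SE 0.51, limma adjusted p = 0.0267). With *Rplp1* alone it was 1.69-fold lower and did not pass (adjusted p = 0.180). In Ct it came at 32.3 and 32.4 in S-MT and S-AT, between 31.6 in ED and 33.4 in TC. Raw Ct thus did not separate the sides, though all housekeeping genes came latest in TC. The 2-fold call of *Tgfb3* was lost with *Rplp1* alone, and kept with *Ldha* alone or the median target gene as reference. Within a sample, the Ct difference between *Tgfb3* and *Tgfbr1* needs no reference. *Tgfbr1* was ahead of *Tgfb3* by 2.98 cycles with S-MT and 2.67 cycles with S-AT, and behind it by 2.59 in ED and by at least 1.56 in TC.

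The remaining TGF-beta members were not called. *Tgfb1*, the isoform best known for driving fibrosis, had Ct 32.2, 32.4 and 33.7 in S-MT, S-AT and ED and 36.7 in TC. *Tgfb2*, another ligand, was measured in the same 3 groups at Ct 33.5 to 34.8. *Tgfbr3*, the co-receptor betaglycan, was at -7.52 with S-MT, -7.33 with S-AT and -6.35 in ED and over the cut-off in TC. Unlike *Tgfbr1* and *Tgfbr2* it was highest in ED among the groups that measured it, and without TC its difference was -1.08 (limma adjusted p = 0.00258). Of the 6 members, 6 were measured in S-MT, S-AT and ED and 1, *Tgfb3*, in TC. With the mean of the reference genes 2 were higher and 1 was lower. The shares over all lists were 16.0% of the 50 genes measured in both scaffold groups and 8.33% of the 24 measured in both unscaffolded groups.

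Of the cartilage matrix genes, *Col2a1* alone was lower in both scaffold groups by the rule. *Col2a1*, the main collagen of cartilage, was at -2.65 in S-MT, -2.91 in S-AT, 0.12 in ED and -0.00 in TC. The 2 unscaffolded groups were high and alike, and the sides did not overlap. The scaffold mean was 7.16-fold lower (log2 -2.84, SE 0.51, limma adjusted p = 0.00853). It stayed lower with *Rplp1* alone, by 3.10-fold (adjusted p = 0.0226), and with *Ldha* alone, by 16.5-fold. In Ct it came at 29.5, 29.8, 28.1 and 29.8, so TC and the scaffold groups had like Ct although the housekeeping genes of TC were later.

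*Comp*, cartilage oligomeric matrix protein of cartilage and loaded tendon, was at -2.33 in S-MT, -3.30 in S-AT, 0.29 in ED and -2.18 in TC. The high value belonged to ED alone, with TC only 1.11-fold above S-MT, and the difference of -1.87 (SE 0.86) did not pass (limma adjusted p = 0.154). Without TC, *Comp* passed the 2-fold rule as lower. *Sox9* was over the cut-off in all 4, though by less than 0.1 cycles in S-MT and ED. *Col10a1*, the collagen of hypertrophic cartilage, was measured in ED only, at Ct 34.6. *Twist1*, a transcription factor of mesenchyme that restrains osteoblast maturation, was at -5.37, -5.48, -4.78 and -4.23, a difference of -0.93 (limma adjusted p = 0.237).

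In 4 collagens of fibrous tissue the scaffold groups lay between ED and TC. *Col1a1*, the main collagen of tendon and bone, was at 0.28 in S-MT, 0.50 in S-AT, 0.78 in ED and -0.94 in TC. *Col3a1*, the collagen of early scar, was at 1.91, 2.10, 2.56 and 0.93, and *Col5a1*, which regulates fibril diameter, at -3.24, -3.05, -2.41 and -4.28. *Col6a1*, a collagen of the matrix next to cells, was at -2.57, -2.52, -2.13 and -4.23. In all 4 of these genes ED was the highest and TC the lowest, so that the sides overlapped. Adjusted p by limma ran from 0.561 to 0.818 for them. *Col1a2*, the other chain of type I collagen, had S-AT above ED, and its difference was 0.37 (limma adjusted p = 0.640). With *Rplp1* alone limma called *Col1a2* higher (adjusted p = 0.0401). Without ED, *Col1a1*, *Col5a1* and *Col6a1* passed the 2-fold rule as higher, and without TC limma called *Col5a1* lower (-0.74, adjusted p = 0.0326). Of the 5 fibrillar collagens all were measured in all 4 groups, with 0 higher and 1 lower, *Col2a1*, and a median difference of 0.26. The shares over all lists were 16.0% of 50 genes higher and 8.33% of 24 lower, so 1 lower gene in so short a list is not set apart. Of the 4 other collagens, 0 were called. Of these, *Col14a1*, a collagen on the fibril surface, was at -5.07, -4.83, -4.32 and -4.29.

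Genes that fold, trim or bind collagen varied. *Serpinh1*, the collagen chaperone HSP47, was at -1.33 in S-MT, -1.48 in S-AT, -2.23 in ED and -3.26 in TC. The sides did not overlap, but the difference of 1.34 (SE 0.57) did not pass (limma adjusted p = 0.154). With *Rplp1* alone it was 5.83-fold (adjusted p = 0.00926). *Bmp1*, the protease that trims procollagen, was at -4.48, -4.54, -4.53 and -1.75, so that TC alone was high, 6.64-fold above S-MT and 6.91-fold above S-AT. *Bgn*, the small proteoglycan biglycan, was at -0.99, -0.88, 0.28 and -0.48, with both unscaffolded groups higher by less than 2-fold on average (difference -0.84, limma adjusted p = 0.262).

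Ratios to *Col1a1* within a sample use no reference gene. The 6 called genes measured in all 4 groups stayed at least 2-fold apart on this scale. For the 4 over the cut-off in TC the ratios did not overlap, but the gap that could be shown was under 2-fold, from 0.35 for *Itgav* to 0.90 for *Tgfbr1* on the log2 scale. *Ctsk* against *Col1a1* was -1.06 in S-MT, -1.65 in S-AT, -5.91 in ED and -3.54 in TC, a mean difference of 10.3-fold. *Spp1*, *Mmp2* and *Itgb1* against *Col1a1* were 5.24-fold, 3.96-fold and 3.51-fold higher in the scaffold groups, with no overlap. Against *Fn1*, the gap of *Itgb1* was 0.30 on the log2 scale. *Col2a1* against *Col1a1* was -2.93, -3.41, -0.66 and 0.93, 9.90-fold lower in the scaffold groups. *Tgfb3* against *Col1a1* was 5.41-fold lower. *Comp* against *Col1a1* was 5.05-fold lower, and here the sides did not overlap. *Col3a1* and *Col5a1* against *Col1a1* differed by -0.21 and -0.27 on the log2 scale, so these 3 collagens moved nearly in parallel over the 4 groups. *Ctsk* against *Col2a1*, the ends of the order, was 1.87 and 1.75 in S-MT and S-AT and -5.26 and -4.48 in ED and TC, a difference of 102-fold. These ratios were chosen after the values were known and have no test.

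**Figure D3:**
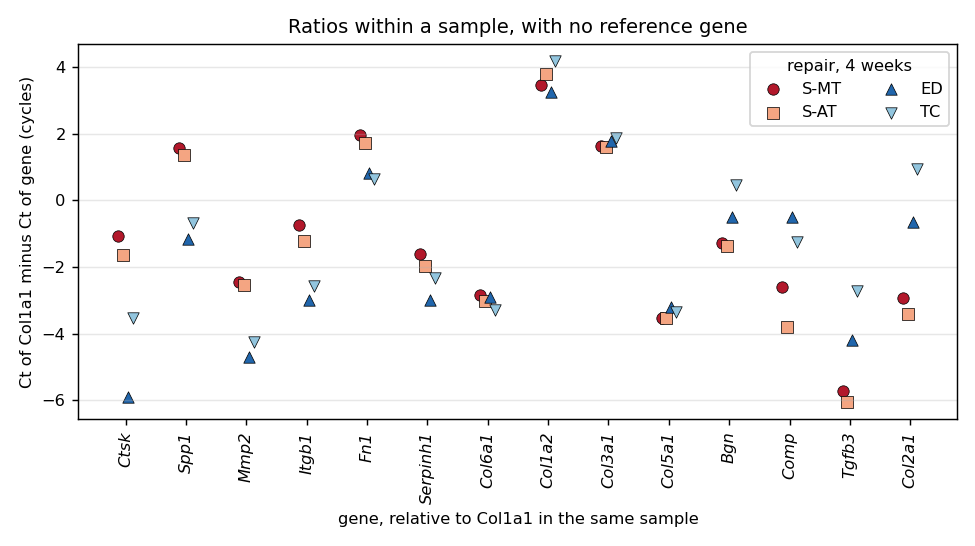
Ct of *Col1a1* minus Ct of the gene in the same sample, in cycles, for genes measured in all 4 repairs, 1 point per gene and group and no reference gene. *Ctsk*, *Spp1*, *Mmp2* and *Itgb1* lie higher in S-MT and S-AT, *Comp*, *Tgfb3* and *Col2a1* lie lower, and *Col3a1* and *Col5a1* lie close together in all 4 groups.

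Vascular and scavenger genes were measured mainly in the scaffold groups and ED. *Cd36*, a fatty acid and thrombospondin receptor of fat cells, macrophages and capillaries, was at -3.26 with S-MT, -2.80 with S-AT and -5.16 in ED. In TC it was over the cut-off by less than 0.1 cycles, at most -5.23. S-MT and S-AT were 3.73-fold and 5.13-fold above ED and at least 3.91-fold and 5.38-fold above TC, and with no cut-off the difference was 2.17 (limma adjusted p = 0.0593). *Vegfa*, the main growth factor of vessels, was at -3.04, -2.91, -3.67 and -4.47, and the difference of 1.10 (SE 0.54) did not pass (limma adjusted p = 0.179), though it did with *Rplp1* alone (adjusted p = 0.00968). *Flt1*, a VEGF receptor of endothelium, had Ct 32.3, 32.9 and 34.1 in S-MT, S-AT and ED and 35.3 in TC. *Vegfb*, a related ligand, had Ct 34.6 in both scaffold groups and 35.7 and 37.9 in ED and TC.

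Among other growth factors, *Igf1*, insulin-like growth factor 1, was at -1.28 in S-MT, -1.70 in S-AT, 0.32 in ED and -0.72 in TC. Both unscaffolded groups were higher, ED by 3.05-fold over S-MT and 4.08-fold over S-AT, and the difference of -1.30 (SE 0.58) did not pass (limma adjusted p = 0.154). With *Rplp1* alone it was 1.06-fold lower in the scaffold groups. Of the 8 genes of the insulin-like, fibroblast, epidermal and platelet-derived growth factor families, 4 were measured in S-MT, 5 in S-AT, 4 in ED and 1, *Igf1*, in TC. Of these 0 were called, beside 16.0% of 50 genes higher and 8.33% of 24 lower over all lists. *Pdgfa*, a platelet-derived growth factor chain, had Ct 32.6, 33.2 and 33.6 in S-MT, S-AT and ED and 37.2 in TC.

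Bone morphogenetic protein (BMP) ligands, which start bone formation, were at the limit of detection on both sides. Of the 9 ligands and antagonists, 0 were measured in S-MT and TC and 1, *Bmp5*, in S-AT and ED. *Bmp2*, *Bmp4*, *Bmp6* and *Bmp7* were over the cut-off in all 4 groups. The receptors were measured more widely, 4 of 4 in S-MT and S-AT, 2 in ED and 1 in TC. *Bmpr2*, the type II receptor, was at -5.01, -4.49, -4.42 and -4.91 (difference -0.08, limma adjusted p = 0.880). *Acvr1* and *Bmpr1b*, type I receptors, had Ct 33.4 and 34.9 with S-MT, 33.5 and 33.8 with S-AT, and were over the cut-off in ED and TC.

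SMAD proteins carry the receptor signal to the nucleus, and 4 of 5 of their genes were measured in S-MT and S-AT, 3 in ED and 1 in TC. *Smad2*, on the TGF-beta branch, was at -4.32, -4.44, -4.97 and -4.72, a difference of 0.46 (limma adjusted p = 0.549) that passed with *Rplp1* alone (adjusted p = 0.0226). *Smad3*, its partner, had Ct 34.4 in both scaffold groups and 35.2 and 38.7 in ED and TC.

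Osteoblast and inflammatory genes were scarce on the array at 4 weeks. Of the 9 osteoblast genes only *Runx2*, the transcription factor that commits cells to the osteoblast lineage, was measured, at Ct 32.7 with S-MT and 33.1 with S-AT, and it was undetermined in ED and at 36.8 in TC. *Bglap*, osteocalcin of mature osteoblasts, was at 38.0 to 38.1 in all 4. Of the 6 cytokine and signalling genes, 3 were measured in S-MT, 4 in S-AT, 1 in ED and 0 in TC. *Csf1* and *Tnfsf11*, which encode M-CSF and RANKL, the signals for osteoclast formation, had Ct 32.7 and 34.9 with S-MT, and 32.6 and 33.7 with S-AT. Both were over the cut-off in ED and TC. *Nfkb1*, which encodes part of the NF-kappa B complex of inflammation, had Ct 31.7, 33.1 and 34.7 in S-MT, S-AT and ED and 36.9 in TC, and *Tnf*, a cytokine of macrophages, was measured in S-AT only, at 34.5.

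Detection as a whole was nested. S-MT measured 51 of the 84 genes, S-AT 56, ED 42 and TC 24. All 24 genes of TC were measured in the other 3 groups, and 40 of the 42 genes of ED were measured in both scaffold groups. A further 16 genes were measured in S-MT, S-AT and ED but not in TC. The 10 genes measured in both scaffold groups and in neither unscaffolded group were *Acvr1*, *Bmpr1b*, *Csf1*, *Icam1*, *Mmp9*, *Runx2*, *Smad3*, *Tnfsf11*, *Vcam1* and *Vegfb*, and 0 genes showed the reverse. Genes at least 1 cycle ahead of well H06 numbered 38 in S-MT, 25 in S-AT, 23 in ED and 24 in TC. In S-AT all 10 genes came less than 1 cycle ahead of H06, or after it. The part of genomic DNA in them was not tested. Detection moved with the reference Ct, which was 26.8 and 26.9 for S-MT and S-AT, 28.2 for ED and 29.8 for TC. At these Ct the lowest level that could be measured was -8.19, -8.11, -6.82 and -5.23 on the log2 scale. Of the 10 genes, 0 lay 2-fold above the TC limit in both scaffold groups and 2, *Icam1* and *Mmp9*, lay 2-fold above the ED limit, so a 2-fold lower level in TC could not be shown for any of the 10. Of the 50 genes measured in both scaffold groups, 22 lay far enough above the TC limit for a 2-fold difference to be seen.

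**Figure D4:**
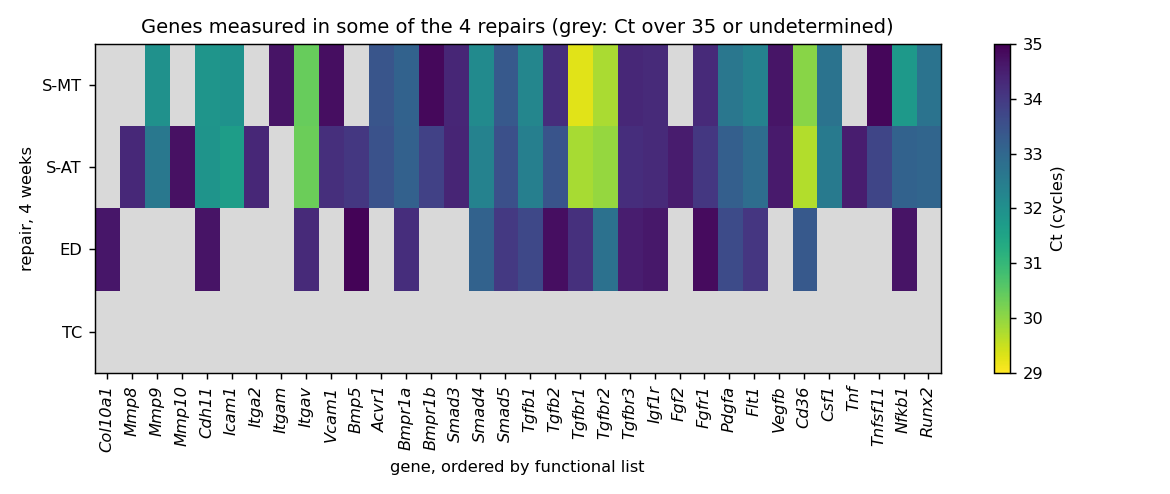
Ct in cycles (colour scale) of the 34 genes measured in some but not all of the 4 repairs, genes along the horizontal axis by functional list and groups as rows, with grey for a Ct over 35 or undetermined. TC is grey throughout. ED is grey in the 10 genes measured in both scaffold groups alone, and in those measured in a single scaffold group, except *Bmp5*.

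Each scaffold group set against each unscaffolded group gave related counts, and these comparisons share samples. Against ED, S-MT had 12 of 51 genes at least 2-fold higher (23.5%) and 9 of 42 lower (21.4%). S-AT had 12 of 56 higher (21.4%) and 6 of 42 lower (14.3%). Against TC, S-MT had 16 of 51 higher (31.4%) and 4 of 24 lower (16.7%), and S-AT had 17 of 56 higher (30.4%) and 5 of 24 lower (20.8%). With *Rplp1* alone the higher counts were 24 (47.1%), 30 (53.6%), 25 (49.0%) and 22 (39.3%) in this order. The lower counts were 2 in each, 4.76% of the genes measured in ED and 8.33% of those measured in TC.

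**Figure D5:**
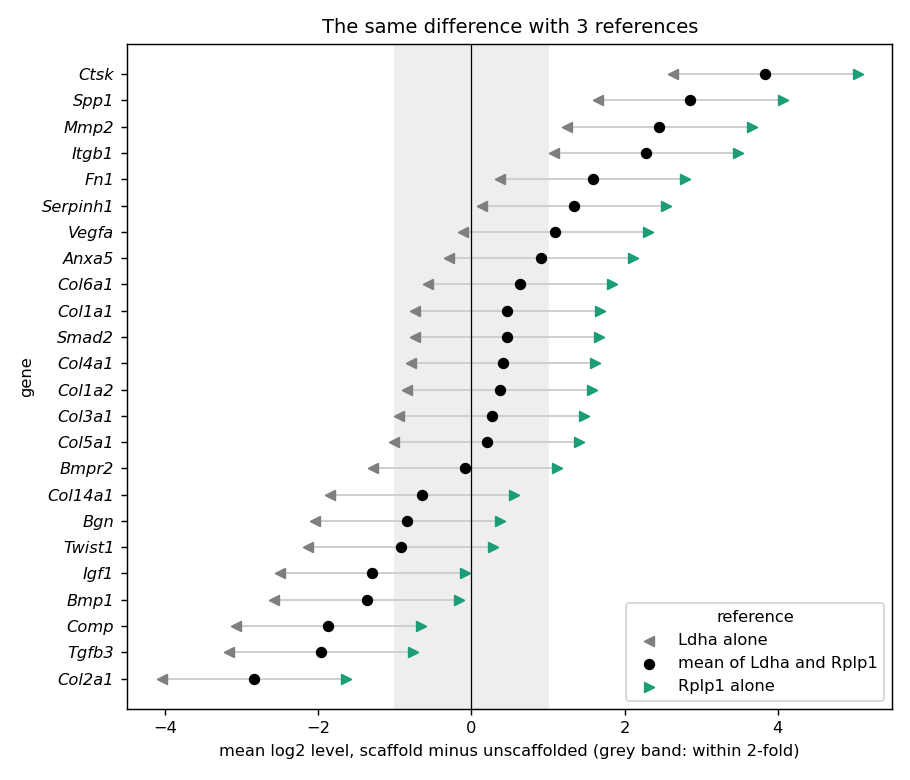
Mean log2 level of the scaffold groups minus that of the unscaffolded groups for the 24 genes measured in all 4 repairs (horizontal axis), with *Ldha* alone, the mean of *Ldha* and *Rplp1*, or *Rplp1* alone as reference, and a grey band for differences within 2-fold. *Ctsk*, *Spp1*, *Mmp2* and *Itgb1* are to the right of the band and *Col2a1* to the left with each reference, while most collagens cross 0.

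With the reference changed, the ends of the order kept their side and the middle did not. *Ctsk*, *Spp1*, *Mmp2*, *Itgb1*, *Fn1* and *Serpinh1* had positive mean differences with all 3 references, and *Col2a1*, *Tgfb3*, *Comp*, *Bmp1* and *Igf1* had negative ones. In the other 13 genes, including *Col1a1*, *Col3a1*, *Bgn* and *Vegfa*, the sign turned with the reference. With *Rplp1* alone limma called 10 genes higher (41.7%) and 1 lower (4.17%), and with *Ldha* alone 1 higher (4.17%) and 6 lower (25.0%).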

How the data were processed

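The authors extracted total RNA with phenol and chloroform and ran a 96-well rat osteogenesis array with SYBR Green. Their first deposited table lists raw Ct by well, not normalized. The second deposited table gives linear levels over the *Ldha* and *Rplp1* pair, names the wells and was otherwise used only as an alternative. A further table holds the authors' fold changes over native tissue and was not used. Native and 12-week samples were not used. All 89 gene symbols were found in the RefSeq table. Levels under the Ct cut-off of 35 could not be measured, and 1 value per group gives no precision.

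Levels were computed in pandas 2.3.3 and numpy 2.4.6 (Python 3.11.15) and tested with limma 3.58.1 (lmFit, eBayes) in R 4.3.3. The calculation was run on simulated data whose noise followed the spread between S-MT and S-AT, smaller than that between ED and TC. Those data cannot show how limma behaves at the spread of the real groups. Text names genes 2-fold apart with the mean of the reference genes or *Rplp1*, genes measured on 1 side only, the 10 largest differences in each direction, genes the paper names for these groups, and housekeeping genes. Others were chosen after their values were seen. Members, lists and tests were chosen with earlier results of these data known. Alternatives were other references, cut-offs, amplification, fold limits, the authors' normalized values and leaving out each sample. Figures used matplotlib 3.10.9.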

Additional observations from a re-analysis of the deposited data

Results flagged for a closer look

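Well H06, the genomic DNA control in the usual layout of such plates, lies outside the 84 genes and gave a signal within the cut-off of 35 in 3 of the 4 samples. It came at Ct 34.0 for both S-MT and ED, at 32.5 for S-AT and, over the cut-off, at 36.5 for TC. The name of this well is not given in the sources used here.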

How the results depend on the processing

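With 1 deposited value per gene and group there is no error between rats, and a late reference Ct limits what TC could show. No paired analysis was possible because the groups compared hold 1 sample each and share no donor or batch number. Of the main calls, *Ctsk* and *Col2a1* passed the 2-fold rule under all 12 settings that kept the 2-fold limit. *Spp1*, *Mmp2* and *Itgb1* passed under 11, failing with *Ldha* alone. *Tgfbr1* and *Tgfb3* passed under 10, *Tgfbr2* under 9 and *Cd36* and *Itgav* under 8. With the authors' values, and with no cut-off, the rule required a value in all 4 groups. Among the authors' values *Cd36*, *Itgav*, *Tgfbr1* and *Tgfbr2* did not meet this, so they could not be called there. The 8 genes higher by the 2-fold rule became 15 with *Rplp1* alone, 2 with *Ldha* alone, 4 with a cut-off of 33, 4 with the authors' normalized values and 3 with a 4-fold limit, and 8 to 15 with a sample left out (15 without ED). The 2 lower genes became 1, 8, 5 with the median target gene as reference, 1 with a cut-off of 33 and 1 with a 4-fold limit, and 2 to 6 with a sample left out (4 without ED, 6 without TC). The 4 genes higher by limma became 10 with *Rplp1* alone, 1 with *Ldha* alone and 1 with a cut-off of 33, and 0 to 12 with a sample left out. The 2 lower by limma became 1, 6, 5 with the median target gene, 1 with a cut-off of 33 and 1 without a cut-off, and 0 to 9 with a sample left out. The 0 arose without S-MT or without S-AT, where 4 and 3 genes had an unadjusted limma p under 0.05 and the spread came from ED and TC alone. Without ED limma called 12 higher, and without TC it called 12 higher and 9 lower of 40 tested. The median difference of 0.39 became 1.59 with *Rplp1* alone, -0.82 with *Ldha* alone and -0.15 with the median target gene, and ran from -0.29 (without TC) to 1.11 (without ED). Signs turned with *Rplp1* alone for *Bgn* (0.37), *Bmpr2* (1.12), *Col14a1* (0.56) and *Twist1* (0.28). They turned with *Ldha* alone for *Anxa5* (-0.30), *Col1a1* (-0.74), *Col3a1* (-0.94), *Col5a1* (-1.01), *Col6a1* (-0.57), *Smad2* (-0.74), *Vegfa* (-0.11), *Col1a2* (-0.84) and *Col4a1* (-0.80). With the median target gene they turned for *Col1a1* (-0.075), *Col3a1* (-0.28), *Col5a1* (-0.34), *Smad2* (-0.078), *Col1a2* (-0.18) and *Col4a1* (-0.13). With a sample left out the differences ran from -2.76 to 0.022 for *Bmp1*, -0.39 to 1.33 for *Col1a1*, -0.55 to 1.08 for *Col3a1*, -0.74 to 1.14 for *Col5a1* and -0.41 to 1.68 for *Col6a1*, lowest without ED for *Bmp1* and without TC for the collagens. The range was -0.35 (without S-AT) to 0.18 (without S-MT) for *Bmpr2*. A restriction to genes at least 1 cycle ahead of well H06 in both samples of the higher side, chosen after seeing the data, left 8 higher and 2 lower. It checked only the side on which the genes had been called for being high. It therefore says nothing of the lower side and is no support for the calls. Apart from the rule for the authors' values, the cause of these changes was not tested.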
